A study of Mus musculus with 13 samples.

Results

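The miR-26 family of the mouse comprises the hairpins mmu-mir-26a-1, mmu-mir-26a-2 and mmu-mir-26b, each encoded in an intron of a Ctdsp phosphatase gene. Its members were taken by hairpin name, and every arm listed in the small RNA-sequencing counts was kept, which gave 5 mature miRNAs of the 1384 that had a read in at least 1 library. These were miR-26a-5p, miR-26b-5p, miR-26a-1-3p, miR-26a-2-3p and miR-26b-3p. The family was chosen with earlier results of these data in view, and miR-26b-5p was already known to be high in TgR hippocampi, so differences between genotypes in hippocampus are given for all 5 members as a description without p-values.

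Small RNA was sequenced in 13 libraries of brain tissue from mice of the FVB/N strain. FVB/N controls were wild type, and TgR mice carried a human AChE-R transgene, the stress-associated splice variant of acetylcholinesterase, driven by a minimal promoter-enhancer of cytomegalovirus. Prefrontal cortex (PFC) was taken from 3 FVB/N and 4 TgR mice, and hippocampus from 3 FVB/N and 3 TgR mice. No treatment was given in the labels, nor were the ages of the sequenced mice, and whether both regions came from the same mice was not given in the sources used here. One row per mature miRNA held 5350259 to 11111883 counts per library, and TgR PFC replicate 2 was the shallowest. Levels are given as CPM, the counts of a miRNA relative to the total of its library, scaled by TMM factors, which align the bulk of miRNAs between libraries. The neuronal marker list, 5 miRNAs that include miR-124-3p and miR-9-5p, was detected in every library, with sums of 306500 to 454500 CPM.

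A miRNA is cut from a hairpin, and mostly one arm is loaded into Argonaute, where its seed, bases 2 to 8, pairs with target transcripts. The other arm is usually degraded. The miR-26 hairpins are transcribed with Ctdsp1, Ctdsp2 and Ctdspl, whose small phosphatase products act as cofactors of REST, the repressor of neuronal genes in non-neuronal cells, and miR-26b is known to target Ctdsp2 during neurogenesis. Another well-known target of miR-26a is Ezh2.

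The sequences below show which members share a seed and how the paralogs can be told apart. Sequences and coordinates are those of RefSeq on GRCm38.p6, all 5 members were matched, and capitals mark the seed.
miR-26a-5p: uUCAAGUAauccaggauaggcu
miR-26b-5p: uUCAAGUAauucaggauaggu
miR-26a-1-3p: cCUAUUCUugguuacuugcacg
miR-26a-2-3p: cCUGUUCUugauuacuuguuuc
miR-26b-3p: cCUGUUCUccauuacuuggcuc

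Both 5p arms carry the seed UCAAGUA, which no other of the 1679 mouse mature miRNAs in the RefSeq table shares. With positions counted from 1 at the 5′ end, they differ by C11U and C21U over the 21 bases they have in common, and miR-26a-5p is 1 base longer. Both differences lie outside the seed. The 3p arms fall into 2 seed groups, because miR-26a-1-3p differs from miR-26a-2-3p by A4G within the seed. miR-26a-2-3p and miR-26b-3p share the seed CUGUUCU with miR-6932-3p and miR-7039-3p, which had 77 counts in total over all 13 libraries.

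The 3 precursors lie on separate chromosomes, each on the plus strand and on the strand of its host. They are shown because the 5p arm of both miR-26a hairpins is identical, so that only their loops, 3p arms and outer ends separate them. Capitals here mark the 5p and the 3p arm.
Mir26a-1: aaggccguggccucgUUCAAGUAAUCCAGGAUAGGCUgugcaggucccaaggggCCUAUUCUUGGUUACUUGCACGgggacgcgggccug
Mir26a-2: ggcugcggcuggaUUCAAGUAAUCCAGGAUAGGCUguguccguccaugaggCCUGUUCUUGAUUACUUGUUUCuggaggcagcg
Mir26b: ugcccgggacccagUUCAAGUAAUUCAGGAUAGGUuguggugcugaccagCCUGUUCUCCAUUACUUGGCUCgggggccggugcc

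Mir26a-1 (chr9:119031796-119031885) lies in intron 5 of the principal Ctdspl transcript, which has 8 exons. Mir26a-2 (chr10:126995530-126995613) lies in intron 5 of Ctdsp2, also of 8 exons, and Mir26b (chr1:74394310-74394394) in intron 4 of Ctdsp1, of 7 exons. No annotated exon of these hosts overlapped a hairpin. The loops between the arms are 17, 16 and 15 bases long. Reads of miR-26a-5p were listed at both of its hairpins with nearly the same count, apart by 6 to 86 reads per library, at most 0.0272%, so its level cannot be divided between Ctdspl and Ctdsp2. It was counted once, from the mir-26a-2 row.

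miR-26a-5p was among the most abundant miRNAs of the brain libraries, at rank 3 or 4 of all mature miRNAs in each, with 5.91% to 7.99% of the counts. miR-26b-5p ranked between 49 and 72, miR-26a-2-3p between 283 and 324, miR-26b-3p between 435 and 496 and miR-26a-1-3p between 484 and 602. All mature members are 21 or 22 bases long and a read covers the whole miRNA, so these levels need no correction for length. They remain orders of read counts, since adapter ligation differs between sequences. miR-26a-5p had 316386 to 838608 counts per library, miR-26b-5p 9650 to 31905, miR-26a-2-3p 115 to 463, miR-26b-3p 19 to 67 and miR-26a-1-3p 6 to 28. A level of 3 counts, the least taken as detected, corresponded to 0.27 to 0.561 CPM, and all 5 members were above it in every library and passed the filter on low counts in every comparison.

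**Figure D1:**
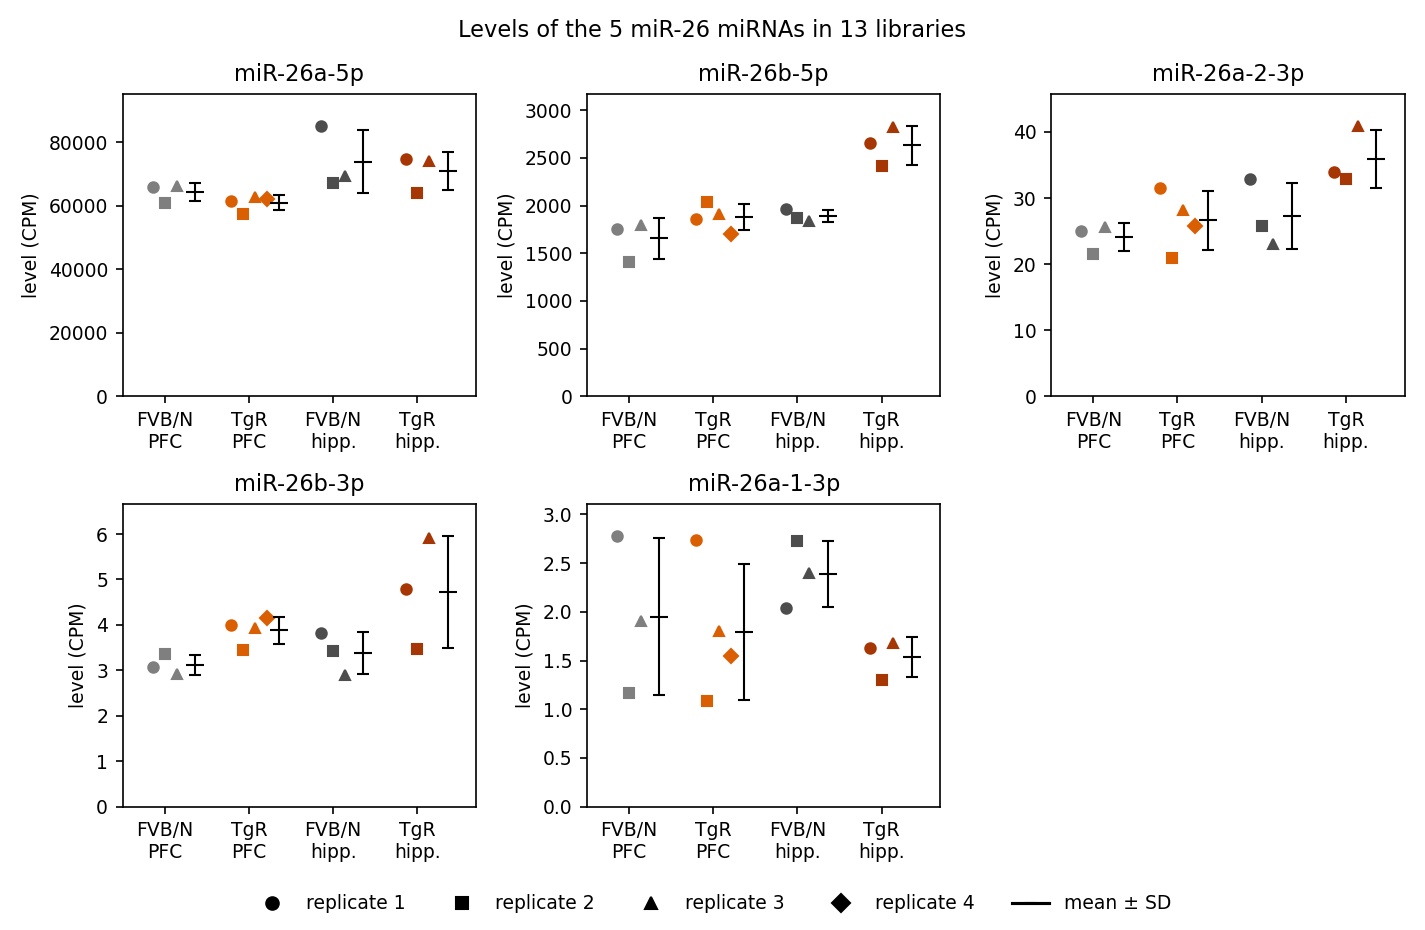
Level in CPM (vertical axes, each from 0) of the 5 members in each of the 13 libraries, grouped by genotype and region, with the mean ± SD of each group in black and replicates marked by symbol. The TgR hippocampus libraries are highest for miR-26b-5p, at 2414 to 2819 CPM against 1409 to 2037 CPM in the other 10, whereas for miR-26a-5p genotypes overlap in both regions.

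The level of miR-26a-5p was similar in both genotypes. In PFC it was 65946, 61051 and 66140 CPM in the FVB/N libraries and 61694, 57470, 62682 and 62217 CPM in the TgR libraries. In hippocampus it was 85191, 67223 and 69550 CPM in FVB/N and 74683, 64193 and 74092 CPM in TgR. Group means were 64379 ± 2884 (SD, n = 3) in FVB/N PFC, 61015 ± 2398 (n = 4) in TgR PFC, 73988 ± 9772 (n = 3) in FVB/N hippocampus and 70989 ± 5893 (n = 3) in TgR hippocampus. FVB/N hippocampus replicate 1 stood above all other libraries, and the hippocampal groups had the wider spread. Ordered by mean, FVB/N hippocampus was followed by TgR hippocampus, FVB/N PFC and TgR PFC, and each group overlapped with its neighbour. Genotypes overlapped within each region.

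The level of miR-26b-5p was higher in TgR hippocampi than in any other group. In PFC it was 1756, 1409 and 1801 CPM in the FVB/N libraries and 1861, 2037, 1914 and 1706 CPM in the TgR libraries. In hippocampus it was 1960, 1870 and 1835 CPM in FVB/N and 2659, 2414 and 2819 CPM in TgR. The means were 1656 ± 214 (SD, n = 3) in FVB/N PFC, 1880 ± 137 (n = 4) in TgR PFC, 1888 ± 64.4 (n = 3) in FVB/N hippocampus and 2631 ± 204 (n = 3) in TgR hippocampus. The lowest TgR hippocampus exceeded the highest library of the other groups, which was TgR PFC replicate 2. TgR PFC and FVB/N hippocampus, neighbours in this order, overlapped, as did both PFC groups.

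The 3p arms were rare. miR-26a-2-3p had a mean of 24.1 ± 2.18 CPM (SD, n = 3) in FVB/N PFC, 26.6 ± 4.46 (n = 4) in TgR PFC, 27.3 ± 5.04 (n = 3) in FVB/N hippocampus and 35.9 ± 4.36 (n = 3) in TgR hippocampus. For miR-26b-3p the means in that order were 3.11 ± 0.227, 3.88 ± 0.301, 3.39 ± 0.461 and 4.73 ± 1.23 CPM. Both followed miR-26b-5p in having their highest mean in TgR hippocampus, where single libraries nevertheless overlapped with FVB/N. miR-26a-1-3p ran the other way, with means of 1.95 ± 0.805, 1.79 ± 0.696, 2.39 ± 0.343 and 1.54 ± 0.204 CPM. Its smallest count, 6 reads in TgR PFC replicate 2, has an exact 95% Poisson interval of 2.2 to 13.1 reads, and intervals of this kind cover counting error only.

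Whether the family differed between genotypes was asked first in PFC, which holds none of the hippocampal values already known to be high for miR-26b-5p. Earlier results of these data were known when the family was chosen, so the PFC outcome cannot be taken as unseen. None of the 5 members passed the quasi-likelihood F test of edgeR after Benjamini-Hochberg adjustment over 628 miRNAs, against a background of 1 miRNA called, 0.159%. None had an unadjusted p under 0.05 and none was called by DESeq2. The log2 fold change, TgR over FVB/N, was -0.08 (SE 0.073, 95% interval -0.25 to 0.08) for miR-26a-5p and 0.18 (SE 0.12, -0.11 to 0.46) for miR-26b-5p, both with an adjusted p of 0.999 in edgeR. These intervals leave room for a rise of miR-26b-5p in PFC about as large as the one seen in hippocampus. For the 3p arms the log2 fold change was 0.14 (SE 0.18) for miR-26a-2-3p, 0.32 (SE 0.20) for miR-26b-3p and -0.13 (SE 0.39) for miR-26a-1-3p. miR-26b-3p was the only member whose groups did not overlap in PFC, at 2.91 to 3.36 CPM in FVB/N and 3.45 to 4.15 CPM in TgR, while 4.78% of all miRNAs tested had groups that did not overlap.

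In hippocampus the level of miR-26b-5p was 1.38-fold higher in TgR than in FVB/N mice, a log2 fold change of 0.46 (SE 0.12), and it was above every FVB/N library in 3 of 3 TgR libraries. That of miR-26a-5p, with the same seed, differed by -0.08 (SE 0.12), or by 0.03 when library totals replaced TMM, a scaling that moved the median of all miRNAs by 0.097. miR-26a-2-3p differed by 0.38 (SE 0.19) and miR-26b-3p by 0.47 (SE 0.25), with overlapping groups. miR-26a-1-3p was lower by a log2 fold change of -0.65 (SE 0.27), at 1.30 to 1.68 CPM in TgR and 2.04 to 2.72 CPM in FVB/N, which rests on 12 to 27 reads per library. Groups did not overlap for these 2 members, and 22.3% of the 619 miRNAs tested had groups that did not overlap. In bulk tissue, a change in the make-up of cells and a change in the level per cell cannot be told apart.

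**Figure D2:**
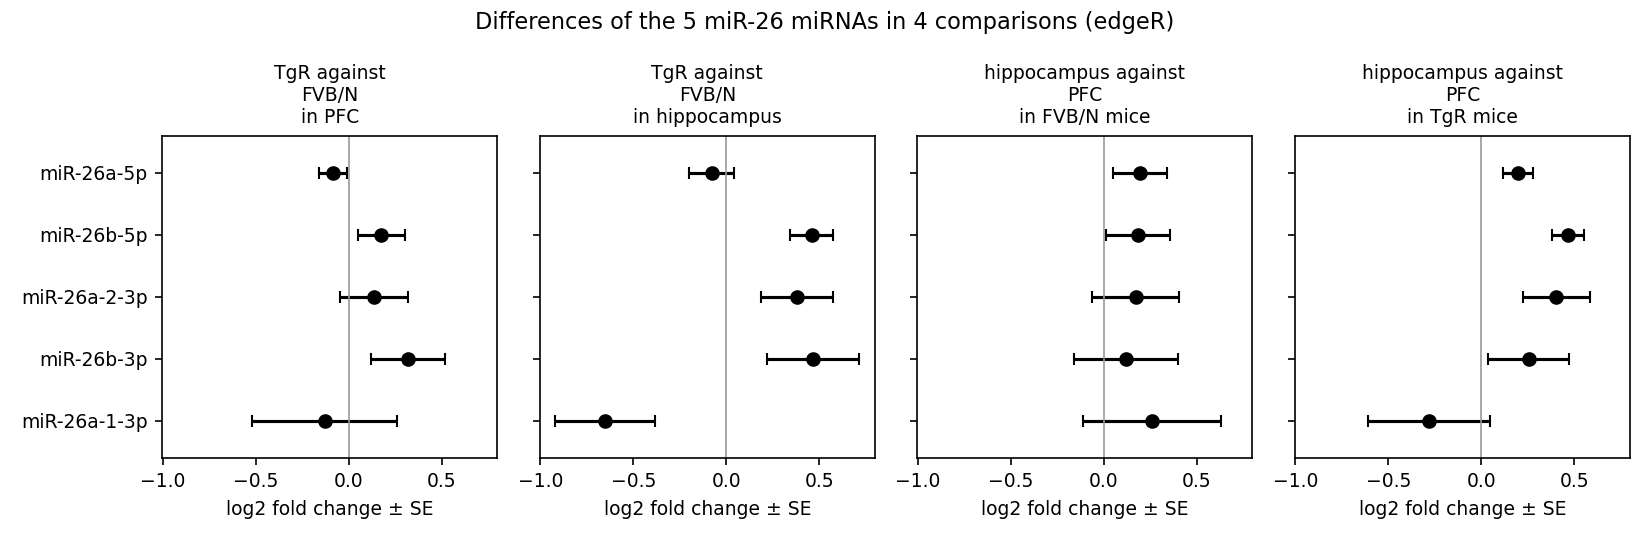
Log2 fold changes from edgeR (horizontal axes) with bars of ± 1 SE for the 5 members (rows) in 4 comparisons (panels), with the grey line at no difference. miR-26a-5p lies within 0.2 of that line in every panel, miR-26b-5p reaches 0.46 in hippocampus and 0.47 between regions in TgR mice, and miR-26a-1-3p lies at -0.65 in hippocampus.

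The TgR hippocampus libraries also differed from the FVB/N ones in miRNAs of other cell types. The marker lists were set by hand with earlier results of these data known, so their counts are a description and no independent evidence. Among 9 choroid plexus miRNAs, 6 of the 8 tested rose in TgR hippocampus in edgeR, which called 4.85% of all 619 miRNAs, 15 higher and 15 lower, or 14 and 7 with library totals. Among the 6 were miR-448-3p, miR-1298-5p and miR-34b-3p. Not called were miR-211-5p, with a log2 fold change of 0.54 (SE 0.32), and miR-449a-5p, with -0.61 (SE 0.36). The summed level of the list was 1606 to 2238 CPM in FVB/N and 2636 to 9925 CPM in TgR hippocampi. Of 4 red blood cell miRNAs 3 fell, and the sum was 1763 to 1858 CPM in FVB/N and 813 to 1092 CPM in TgR. Of 4 oligodendrocyte miRNAs 1 rose, miR-338-3p, with sums of 2256 to 3308 and 2992 to 4864 CPM. No miRNA on the lists for neurons, vessels or white blood cells was called. No marker of these lists was at 0 in all libraries of a group. The part of these cells in the difference of miR-26b-5p was not tested. TgR hippocampus replicate 2, whose choroid plexus sum of 2636 CPM was closest to the FVB/N range, held 2414 CPM of miR-26b-5p. With that library as the only one of TgR hippocampus, an alternative added after the values were seen, the log2 fold change was 0.31 (SE 0.22), where the lone library is assumed to vary like the FVB/N group.

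**Figure D3:**
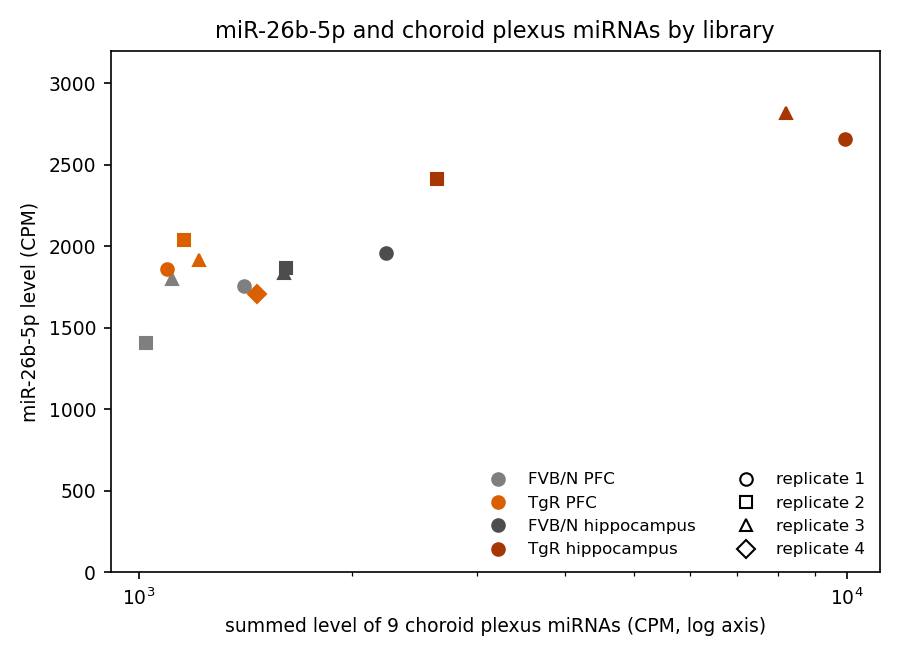
Level of miR-26b-5p (vertical axis, CPM) against the summed level of 9 choroid plexus miRNAs (horizontal axis, CPM, log scale) in the 13 libraries, coloured by group and marked by replicate. TgR hippocampus replicates 1 and 3, at 9925 and 8212 CPM of choroid plexus miRNAs, stand far to the right, and TgR hippocampus replicate 2, at 2636 CPM, has 2414 CPM of miR-26b-5p.

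The effect of genotype in hippocampus minus that in PFC was 0.30 on the log2 scale for miR-26b-5p (SE 0.17, 95% interval -0.06 to 0.65), in a fit of all 13 libraries. It is a description, since it holds the hippocampal contrast, and its interval includes no difference between the regions. For miR-26a-5p it was 0.02 (SE 0.14), for miR-26a-2-3p 0.25 (SE 0.27), for miR-26b-3p 0.16 (SE 0.32) and for miR-26a-1-3p -0.51 (SE 0.48). Across all 647 miRNAs edgeR called 3, 0.464%.

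Because both 5p arms are counted in the same library, their ratio needs no scaling between libraries. It was higher in TgR mice with no overlap between genotypes in either region. The hippocampal part holds the miR-26b-5p values already known to be high. As levels, 4.78% of miRNAs tested in PFC and 22.3% in hippocampus had genotypes that did not overlap. No such share was computed for ratios. Per 100 counts of miR-26a-5p there were 2.66, 2.31 and 2.72 counts of miR-26b-5p in FVB/N PFC and 3.02, 3.54, 3.05 and 2.74 in TgR PFC. In hippocampus there were 2.30, 2.78 and 2.64 in FVB/N and 3.56, 3.76 and 3.80 in TgR. The margin was narrow in PFC, where TgR PFC replicate 4, at 2.742, barely exceeded FVB/N PFC replicate 3, at 2.723. The mean ± SD was 2.56 ± 0.224 (n = 3) and 3.09 ± 0.334 (n = 4) in PFC, and 2.57 ± 0.247 (n = 3) and 3.71 ± 0.130 (n = 3) in hippocampus.

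In PFC the log2 ratio was higher in TgR by 0.27 (SE 0.11), 1.20-fold, with p = 0.0571 in a two-sided exact permutation test over 35 assignments of the libraries, of which the smallest possible p is 0.0286. Adjusted over the 5 ratios examined it was 0.286, so this difference did not pass. Without TgR PFC replicate 2, the shallowest library and the one with the highest ratio in PFC, it was 0.20. In hippocampus the log2 ratio was higher by 0.53 (SE 0.087), 1.45-fold, given without a test. TgR hippocampus replicate 2, lowest of its group in choroid plexus miRNAs, had a ratio of 3.76, within the 3.56 to 3.80 of the other libraries of its group. Its choroid plexus sum, 2636 CPM, was still above the FVB/N hippocampi, at most 2238 CPM. The part of choroid plexus in this ratio was not tested. The 95% Clopper-Pearson intervals of the share of miR-26b-5p in all 5p counts of the family were at most ± 0.0624 percentage points wide per library, so counting error was far below the spread between mice.

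**Figure D4:**
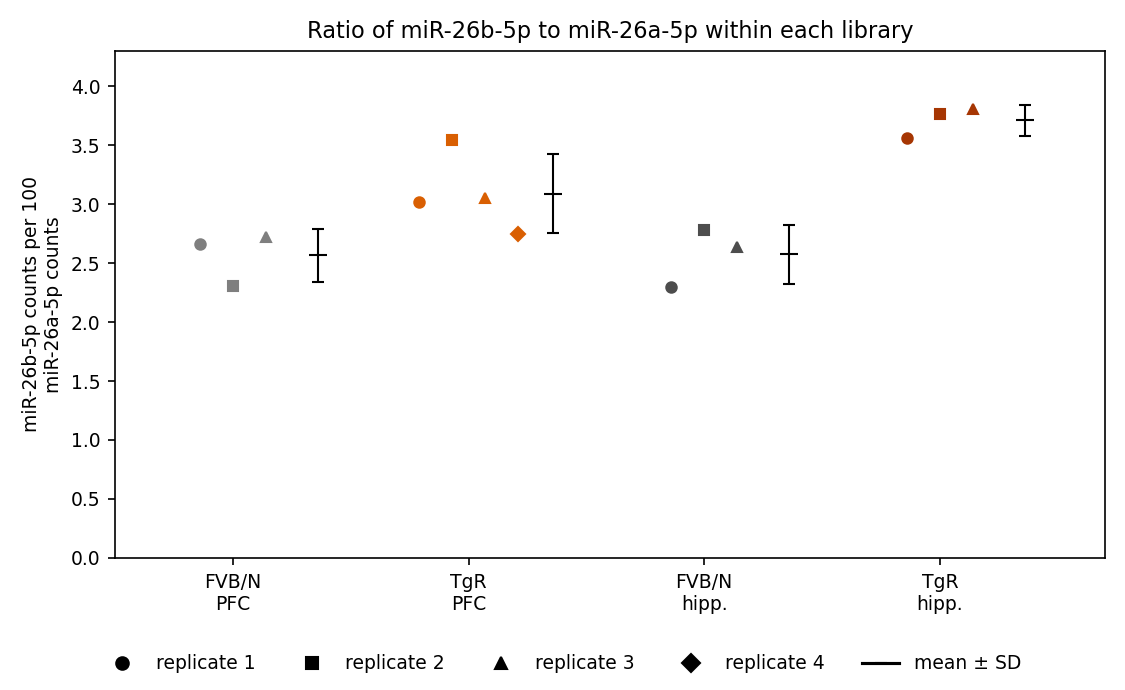
Counts of miR-26b-5p per 100 counts of miR-26a-5p (vertical axis, from 0) in each library by group, with mean ± SD in black and replicates marked by symbol. FVB/N libraries of both regions sit between 2.30 and 2.78, TgR PFC between 2.74 and 3.54, and TgR hippocampus between 3.56 and 3.80.

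The arms of the miR-26a hairpins were next compared within libraries, after 0.5 was added to each count. miR-26a-2-3p made up 0.355 to 0.388 counts per 1000 counts of miR-26a-5p in FVB/N PFC, 0.365 to 0.511 in TgR PFC, 0.333 to 0.387 in FVB/N hippocampus and 0.455 to 0.553 in TgR hippocampus. In hippocampus the genotypes did not overlap and the log2 ratio was higher in TgR by 0.46 (SE 0.11), given without a test. As levels, 22.3% of miRNAs tested there did not overlap. In PFC they overlapped and it was higher by 0.21 (SE 0.11), with p = 0.171 in the exact permutation test and 0.429 after adjustment. The denominator holds reads of both hairpins, so this ratio does not measure arm use of mir-26a-2 alone.

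miR-26a-1-3p, the rarer 3p arm, was set against miR-26a-2-3p, since these are the only reads that tell the 2 miR-26a hairpins apart. Per 1000 counts of miR-26a-2-3p there were 63.8, 107 and 106 counts of miR-26a-1-3p in FVB/N hippocampus and 49.1, 41.2 and 42.1 in TgR hippocampus. All TgR hippocampi were below all FVB/N hippocampi, and the log2 ratio was lower by -1.03 (SE 0.26), given without a test. It rests on 12 to 27 reads of miR-26a-1-3p per library and was 1 of 5 ratios examined. As levels, 22.3% of miRNAs tested in hippocampus had genotypes that did not overlap, and no such share was computed for ratios. In PFC the groups overlapped, at 57.2 to 112 in FVB/N and 56.3 to 88.5 in TgR, with a log2 difference of -0.24 (SE 0.32) and p = 0.429 in the exact permutation test, 0.607 after adjustment. For mir-26b, whose arms come from a single hairpin, there were 1.46 to 2.46 counts of miR-26b-3p per 1000 counts of miR-26b-5p over all libraries. That ratio overlapped between genotypes in both regions, with log2 differences of 0.12 (SE 0.20) in PFC and -0.03 (SE 0.18) in hippocampus, where both arms were higher in TgR by nearly the same log2 fold change, 0.47 and 0.46.

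**Figure D5:**
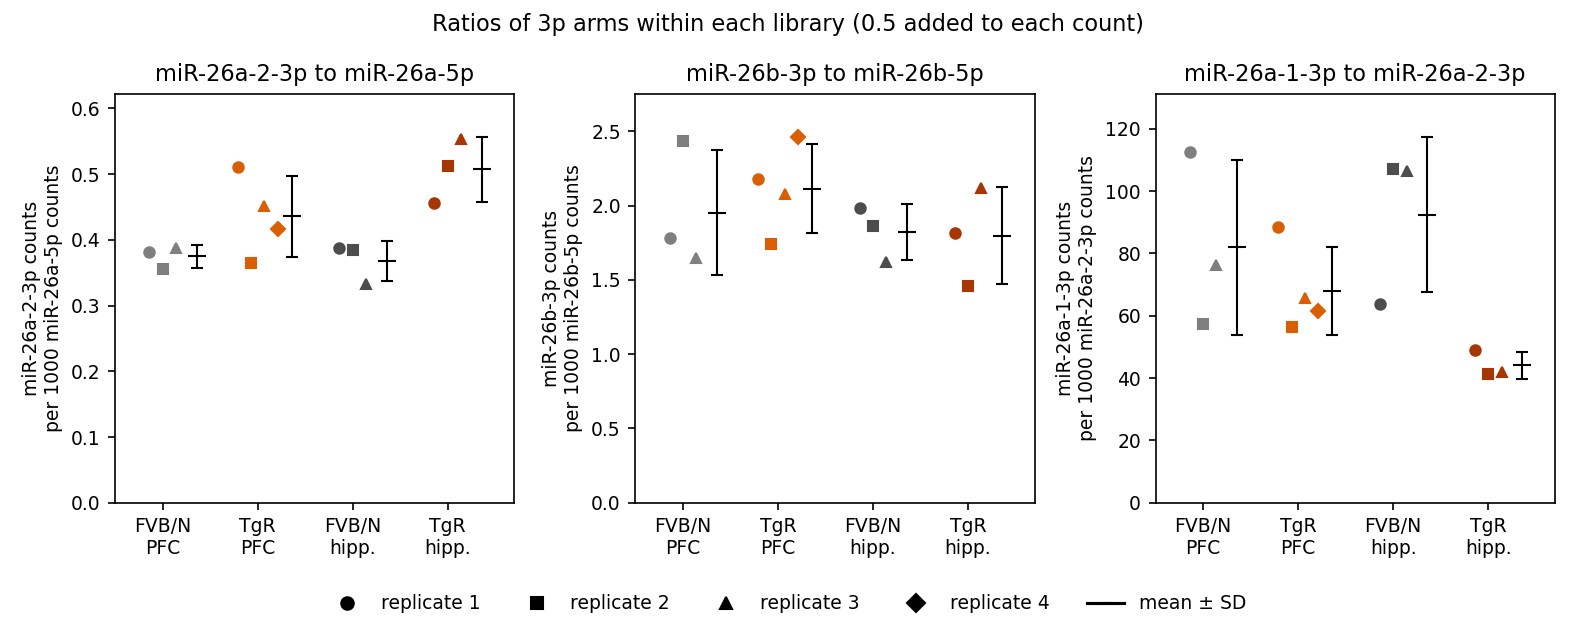
Counts of a 3p arm per 1000 counts of another member (vertical axes, from 0, with 0.5 added to each count) in each library by group, with mean ± SD in black. In TgR hippocampus miR-26a-2-3p is high relative to miR-26a-5p, at 0.455 to 0.553, and miR-26a-1-3p is low relative to miR-26a-2-3p, at 41.2 to 49.1, whereas for miR-26b the groups overlap.

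Between the regions, miR-26b-5p was higher in hippocampus than in PFC in TgR mice, by a log2 fold change of 0.47 (SE 0.086), 1.38-fold, with an adjusted p of 0.00876 in edgeR and 3 of 3 hippocampi above all PFC libraries. It was the 1 member of 5 that passed, against a background of 86 of 633 miRNAs, 13.6%. This comparison reuses the TgR hippocampi in which miR-26b-5p was already known to be high, so it is no independent evidence. miR-26a-5p differed by 0.20 (SE 0.080), with an adjusted p of 0.156 in edgeR, and miR-26a-2-3p by 0.40 (SE 0.18), with an adjusted p of 0.197, both with hippocampi above all PFC libraries. Groups did not overlap in 27.8% of the miRNAs tested, and those called were 42 higher and 44 lower, or 70 and 37 with library totals, which moved the median of all miRNAs by 0.10. miR-26b-3p differed by 0.26 (SE 0.22) and miR-26a-1-3p by -0.28 (SE 0.33). Without TgR hippocampus replicate 1, miR-26b-5p differed by 0.49 with an adjusted p of 0.0505 in edgeR, and with replicate 2 as the only TgR hippocampus by 0.34 with an adjusted p of 0.317. Without TgR hippocampus replicate 2, miR-26a-5p passed the threshold, at 0.24 with an adjusted p of 0.0339 in edgeR.

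In FVB/N mice no member passed. miR-26a-5p was higher in hippocampus by 0.20 (SE 0.15, 95% interval -0.13 to 0.52), with an adjusted p of 0.539 in edgeR, and miR-26b-5p by 0.18 (SE 0.17, -0.20 to 0.57), with an adjusted p of 0.641. Both were above all PFC libraries in 3 of 3 hippocampi, while 21.8% of the 615 miRNAs tested had regions that did not overlap. The 3p arms differed by 0.12 to 0.26 with overlapping groups. None had an unadjusted p under 0.05 and DESeq2 called none, while edgeR called 3.58% of all miRNAs. The oligodendrocyte miRNAs, which mark myelinating glia, summed to 1012 to 1435 CPM in PFC and 2256 to 4864 CPM in hippocampus over both genotypes, and their part in the regional values was not tested.

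The ratio of miR-26b-5p to miR-26a-5p did not differ between regions beyond the spread over both genotypes. It was higher in hippocampus by 0.14 on the log2 scale. A two-sided exact permutation test within genotypes over 700 assignments gave p = 0.11, and 0.431 after adjustment over the 5 ratios. The test holds the TgR hippocampi in which miR-26b-5p was already known to be high, so it is no independent evidence. Within FVB/N mice the difference was 0.0039 (SE 0.11), and within TgR mice 0.27 (SE 0.082). The remaining 4 ratios had exact permutation p-values between regions of 0.229 to 0.651 over both genotypes. Within TgR mice the log2 ratio of miR-26a-1-3p to miR-26a-2-3p was lower in hippocampus by -0.61 (SE 0.16) with no overlap, whereas within FVB/N mice it was 0.19 (SE 0.38) with overlap, so that its pooled value of -0.21 averages opposite directions. These within-genotype values were not tested. As levels, 27.8% of miRNAs tested in TgR mice had regions that did not overlap, and no such share was computed for ratios.

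Other regulators of the proteins around this family were followed for comparison. Of 8 miRNA arms tied to REST, namely both arms of miR-124, miR-9, miR-132 and miR-212, none was called between genotypes in either region, with a median log2 fold change of 0.02 in PFC and 0.26 in hippocampus against 0.003 and -0.001 over all miRNAs tested. Between regions in FVB/N mice 3 of 8 fell in hippocampus, where 3.58% of all miRNAs were called, miR-132-3p by -1.11 (SE 0.18), miR-132-5p by -1.04 (SE 0.19) and miR-212-5p by -1.01 (SE 0.23). In TgR mice, where 13.6% of all miRNAs were called, 2 of 8 fell, miR-132-5p by -0.86 (SE 0.16) and miR-212-5p by -0.73 (SE 0.13). The list medians between regions were -0.57 in FVB/N and -0.27 in TgR mice. miR-132 and miR-212 share a primary transcript induced by neuronal activity. Of 13 miRNAs listed by hand as regulators of Ezh2, none was called between genotypes or between regions in FVB/N mice. Their action on Ezh2 was not examined here. In TgR hippocampus over TgR PFC, the comparison with 13.6% of all miRNAs called, 4 of the 13 rose. These were let-7b-5p by 0.69 (SE 0.095), let-7c-5p by 0.54 (SE 0.12), miR-101a-3p by 0.37 (SE 0.096) and miR-101b-3p by 0.64 (SE 0.14). The list medians were 0.29 in FVB/N and 0.20 in TgR mice, against 0.01 and 0.03 over all miRNAs tested. Closely related let-7 members differ by few bases, so reads may be split among them.

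Across the 13 libraries, which share region and genotype as sources of variation, the pattern of miR-26a-5p was most like those of miR-24-1-5p (Pearson r = 0.909 of log2(CPM + 1) among 211 miRNAs of at least 100 CPM on average), miR-7a-5p (0.863) and miR-338-5p (0.823). Within the 7 PFC libraries these were 0.567, 0.571 and 0.895, and within the 6 hippocampi 0.954, 0.731 and 0.462. The pattern of miR-26b-5p was most like those of miR-34c-5p (0.871), miR-204-5p (0.866) and miR-1298-5p (0.792), all 3 on the choroid plexus list. Within the 6 hippocampi these were 0.974, 0.895 and 0.885. Over the 10 libraries outside TgR hippocampus they were 0.17, 0.446 and 0.0306, and within PFC -0.303, 0.369 and -0.169. That likeness therefore rested on the TgR hippocampi. By rank, with Spearman's rho, miR-26b-5p was nearest to let-7a-1-3p and let-7c-2-3p, which had equal levels (0.83), and to miR-23b-3p (0.747). The 2 let-7 names therefore stand for 1 pattern. Outside TgR hippocampus their Pearson r with miR-26b-5p was 0.264, and within PFC 0.0998. For miR-23b-3p it was 0.538 and 0.619. The 2 main members themselves had r = 0.43 with each other.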

How the data were processed

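Per the labels and the study's methods, total RNA was extracted with miRNeasy and NEBNext small RNA libraries were made. After FastQC, the authors ran miRExpress at default settings against miRBase and deposited raw counts per pair of hairpin and mature miRNA. A read matching several hairpins is therefore listed at each, and treatment of mismatched ends was not given in the sources used here. For the present report, 1514 pairs were reduced to 1 row per mature miRNA, the row of the highest total. edgeR 4.0.16 quasi-likelihood tests used TMM factors, filterByExpr and Benjamini-Hochberg adjustment at 0.05, within the groups compared; DESeq2 1.42.0, other scalings, filters and left-out libraries were alternatives. Ratios used exact permutation tests in Python. Scripts were tested on simulated data. Members, marker lists and pathway lists were chosen with earlier results of these data known, and named miRNAs are all members plus listed ones. Lists were set by hand, and likeness took the 3 highest correlations. Within a region each library is taken as 1 mouse. Libraries of different regions are treated as independent, although whether they share mice was not given. No 2 libraries of the same group agreed within sampling noise.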

Additional observations from a re-analysis of the deposited data

Results flagged for a closer look

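Regional differences of miR-26a-1-3p ran in opposite directions in the genotypes. Every FVB/N hippocampus lay above the FVB/N PFC mean of 1.95 CPM, at 2.04 to 2.72 CPM, and every TgR hippocampus lay below the TgR PFC mean of 1.79 CPM, at 1.30 to 1.68 CPM, and the TgR minus the FVB/N regional difference was -0.525 on the scale of log2 CPM. The single PFC libraries overlapped with the hippocampi, at 1.17 to 2.78 CPM in FVB/N and 1.09 to 2.74 CPM in TgR mice. This pattern was noticed from the libraries and was not tested. edgeR's estimate of the same quantity, -0.51 (SE 0.48), had a 95% interval of -1.55 to 0.53. The values rest on 6 to 28 reads per library, and 10 levels and ratios were looked through.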

How the results depend on the processing

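In PFC the call of 1 miRNA between genotypes held in all 14 alternatives, and no member passed in any of them. The number of miRNAs called between genotypes in hippocampus was 30, with 49 by DESeq2, 64 without the filter on low counts and 2 to 18 when 1 library was left out, 2 without FVB/N hippocampus replicate 3. Between regions it was 22 in FVB/N mice, with 34 by DESeq2, 52 without the filter, 49 with all 13 libraries in one fit and 8 to 51 when 1 library was left out, and 86 in TgR mice, with 43 to 125. For the difference between the regions in the effect of genotype it was 3, with 10 by DESeq2, 16 without the filter and 2 to 8 when 1 library was left out. With replicate 2 as the only TgR hippocampus, chosen after seeing the data, 3 miRNAs were called between genotypes and 6 between regions in TgR mice. miR-26a-5p and miR-26b-5p then differed between genotypes by -0.25 and 0.31, and miR-26b-5p and miR-26b-3p between regions in TgR mice by 0.34 and -0.19, of which the last turned its direction. Which cause lies behind these shifts was not tested.

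Library totals in place of TMM gave miR-26b-5p 0.57 between genotypes in hippocampus, miR-26a-5p 0.30 between regions in TgR mice (adjusted p = 0.0112 in edgeR) and miR-26a-5p 0.14 for the difference between the regions. The sign for miR-26a-5p between genotypes in hippocampus turned to 0.03 under that scaling, well within its SE. Over 14 alternatives miR-26b-5p kept its direction between genotypes in hippocampus, at 0.31 to 0.57. The other arm, miR-26b-3p, did not keep it in all of them, at -0.014 to 0.63, or 0.28 to 0.63 when 1 library was left out. When 1 library was left out, the regional difference in TgR mice was 0.14 to 0.24 for miR-26a-5p and 0.38 to 0.50 for miR-26b-5p, the latter past the threshold in 13 of 15 alternatives. These alternatives for miR-26b-5p reuse the TgR hippocampi in which it was already known to be high, so they are no independent evidence. The regional log2 ratio of miR-26b-5p to miR-26a-5p was 0.10 to 0.18 with 1 library left out. Its exact permutation p was under 0.05 only without FVB/N hippocampus replicate 1, at 0.0257, not adjusted over the 5 ratios.

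Some values of miR-26a-1-3p, at 6 to 28 reads, turned direction when 1 library was left out, whereas its difference between genotypes in hippocampus stayed at -0.76 to -0.55. Between genotypes in PFC its level ranged from -0.39 to 0.23, its log2 ratio to miR-26a-5p from -0.30 to 0.24 and that to miR-26a-2-3p from -0.47 to 0.019, and its regional ratio to miR-26a-5p from -0.24 to 0.024.

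In no comparison did every same-numbered pair of libraries correlate above 0.1, nor was every library closest to its own number, so the numbers were not taken as pairs. With the replicate number as a block 17 miRNAs were called between genotypes in hippocampus and 5 for the difference between the regions, and the regional log2 ratio of miR-26b-5p to miR-26a-5p was 0.11 (exact permutation p = 0.219). The block changed no other call of a member or count by over 1.5 times.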
